A study of Homo sapiens with 2 samples.

Results

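The genes of cholesterol and fatty acid synthesis were compared between 2 human lung cancer cell lines. The list was set by name and by step of the pathway and held 33 of the 27685 genes in the deposited table. It was chosen with earlier results of these data known. The list comprised 5 regulators of the sterol regulatory element-binding proteins (SREBPs), 17 enzymes of cholesterol synthesis and 11 enzymes of fatty acid synthesis. Further genes of lipid metabolism are described after them from a second list, and the remaining steps were not analysed here.

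RNA-seq was performed on 1 library of H2087 cells and 1 library of H596 cells. Both are established cell lines that the labels call lung adenocarcinoma, and both were untreated and grown in the same RPMI medium with fetal bovine serum. Levels are given as FPKM, that is, fragments relative to transcript length and library size, which can be compared between genes because they are relative to length. With a single library on each side there was no replicate check and no test between the cell lines, and the intervals given are 95% intervals that cover counting error only.

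Cells make cholesterol and fatty acids from acetyl-CoA, and the transcription factors encoded by SREBF1 and SREBF2 drive the genes of both routes. SCAP escorts the precursor proteins out of the endoplasmic reticulum, where they are cut, and the INSIG proteins hold SCAP back when sterols are abundant. The factors bind sterol regulatory elements in promoters, usually beside sites for NF-Y, which binds CCAAT, and Sp1, which binds GC-rich boxes. In the lung, lipid synthesis serves the surfactant made by alveolar type II cells, and many tumors run the same routes to supply membranes.

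The promoter sequences of 4 of the genes are shown because they carry the letters through which the pathway is known to be controlled. SREBF2 was the only 1 of the 29 genes with a promoter window that had a match to the letters searched for the sterol regulatory element. INSIG1 had the largest difference among the regulators. MVD had 3 CCAAT matches and serves as an example, as MVK and NSDHL had more, 5 each. FADS2 had the largest difference of all. Capitals mark TCACNCCAC, the letters searched for the sterol regulatory element, and CCAAT, each read on both strands, so that CCAAT on the other strand appears as ATTGG. All are written 5′ to 3′ on the strand of the gene. The first 3 are RefSeq promoter windows cut before the first annotated exon of the gene, and the last was read from the genome just before the first base of transcript NM_004265. In hg19 they lie at chr22:42228859-42229082 (plus strand), chr7:155089338-155089481 (plus strand), chr16:88729570-88729749 (minus strand) and chr11:61595325-61595504 (plus strand). No annotated exon overlapped the stretch before FADS2, which lies in an intron of the 2 FADS2 transcripts that begin further upstream. The stretches of SREBF2 and MVD overlapped exons of the antisense genes SREBF2-AS1 and SNAI3-AS1.
SREBF2: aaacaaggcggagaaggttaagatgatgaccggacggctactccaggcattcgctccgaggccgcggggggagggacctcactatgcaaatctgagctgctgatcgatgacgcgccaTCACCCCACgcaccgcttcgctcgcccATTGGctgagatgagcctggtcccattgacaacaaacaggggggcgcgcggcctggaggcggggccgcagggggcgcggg
INSIG1: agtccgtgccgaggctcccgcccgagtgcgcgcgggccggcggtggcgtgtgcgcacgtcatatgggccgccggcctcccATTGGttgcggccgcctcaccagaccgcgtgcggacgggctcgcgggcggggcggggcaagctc
MVD: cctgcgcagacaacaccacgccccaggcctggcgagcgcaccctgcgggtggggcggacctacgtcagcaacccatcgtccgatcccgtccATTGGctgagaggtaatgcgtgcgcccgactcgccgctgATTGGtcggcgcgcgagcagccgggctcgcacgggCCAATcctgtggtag
FADS2: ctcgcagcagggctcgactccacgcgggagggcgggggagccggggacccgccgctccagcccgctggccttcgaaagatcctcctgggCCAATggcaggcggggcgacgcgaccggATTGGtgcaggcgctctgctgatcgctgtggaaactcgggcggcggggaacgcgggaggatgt

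RefSeq windows of 300 bases (GRCh38.p14), from 250 before to 50 after a start, were found for 29 of the 33 genes, with up to 3 windows for a gene and 41 in all. ACAT2, FDFT1, SQLE and FASN had no window, and FDFT1, SQLE and FASN are among the genes at least 2-fold lower in H596. CCAAT was present on either strand in 27 of the 41 windows (65.9%), against 34.6% of all 35116 windows and 35.1% of the windows of genes compared below. At least 2 matches were present in 17 of the 41 (41.5%), against 10.8% of all windows. The GC box GGGCGG was present in 35 of the 41 windows (85.4%), against 45.0% of all windows and 66.4% of those of genes compared. The letters TCACNCCAC were found in 1 window, that of SREBF2, at positions -133 to -125 from the start, and in 1.13% of all windows. No other form of the element was searched, so a window without a match was not shown to lack one. CCAAT was in 9 of 13 windows (69.2%) of the 8 genes with windows among those at least 2-fold lower in H596, and in 18 of 28 windows (64.3%) of the others. At least 2 matches were in 7 (53.8%) and 10 (35.7%) of these windows. Windows of a gene can overlap and share matches, as those of ACLY do, so they are not independent units. Counted by gene, CCAAT was present for 7 of the 8 lower genes and for 16 of the 21 others. The FADS1 window held no match to CCAAT or TCACNCCAC. Both FADS2 windows counted lie at other starts upstream, and they held 0 and 1 CCAAT matches. The FADS2 stretch shown above is not among the 41 windows. Read apart from them, the 300 bases around the start of NM_004265 held CCAAT at positions -91 to -87 and -63 to -59 from that start. These matches describe the reference sequence and are not measured binding sites.

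Before the levels were compared, the labels were checked against markers. All 5 epithelial markers were present in both libraries, but not in 1 direction. EPCAM (375 FPKM in H2087 and 65.0 FPKM in H596), KRT8 (2493 and 536 FPKM) and KRT18 (3607 and 234 FPKM) were lower in H596, KRT19 was higher (561 and 2183 FPKM), and CDH1 was at 52.3 and 59.6 FPKM. The alveolar and adenocarcinoma markers differed: NKX2-1, a lung lineage factor, was at 110 FPKM in H2087 and 0.508 FPKM in H596, and the summed FPKM of the 5 markers was 215 and 0.602. In H2087 the sum came from NKX2-1, SFTPA1 (82.9 FPKM) and NAPSA (21.9 FPKM), with SFTPB at 0.123 FPKM and SFTPC at 0. The 5 squamous markers summed to 1.66 FPKM in H2087 and 250.2 FPKM in H596, with TP63, the squamous lineage factor, at 55.2 FPKM and KRT5 at 106 FPKM in H596. The H596 library therefore lacked the defining adenocarcinoma markers of its label and held squamous markers, and their part in the differences below was not tested. Markers of leukocytes, endothelium, hepatocytes and adipocytes were at or near 0 in both libraries, with no gene of these 4 lists above 0.489 FPKM, and ALB of liver and ADIPOQ of fat were at 0 in both. Fibroblast markers summed to 3.90 FPKM in H2087 and 10.7 FPKM in H596, the latter almost all DCN (9.77 FPKM).

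Where the synthesis genes differed by 2-fold, they were lower in H596 than in H2087. A gene was compared where its mean FPKM was at least 1, which 32 of the 33 genes passed, and called where log2(FPKM + 1) in H596, less that in H2087, was at least 1 in size, that is, 2-fold. Of the 32 genes, 11 (34.4%) were at least 2-fold lower in H596, 0 were at least 2-fold higher and 21 lay within 2-fold. Among all 13047 genes compared, 14.2% were lower and 18.2% were higher by this rule, 32.4% in all. The share of synthesis genes called in either direction was thus near the background. The direction was not: all 11 calls were lower, whereas calls over all genes were more often higher. Because the list was chosen with earlier results of these data known, this direction is a description and not an independent result. The difference was below 0 for 25 of the 32 genes (78.1%), against 44.9% of all genes. The median difference was -0.68, against 0.12 for all genes. In bulk libraries such as these, less RNA in every cell cannot be told apart from fewer cells with the RNA.

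The shift of all genes above 0 was removed by TMM scaling, which moved the median of all genes by -0.12 to 0.00. With it, 13 of the 32 genes were at least 2-fold lower, against 16.3% of all genes, MSMO1 and ELOVL6 being added, and the median difference was -0.81. The summed FPKM of the 33 genes was 2179 in H2087 and 985 in H596, a 2.21-fold difference. They held 0.465% of all FPKM in H2087 and 0.239% in H596. Among the genes with at least 100 FPKM were 6 of the 33 in H2087 (SCD, FDFT1, FDPS, SQLE, FASN and DHCR7) and 1, SCD, in H596.

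**Figure D1:**
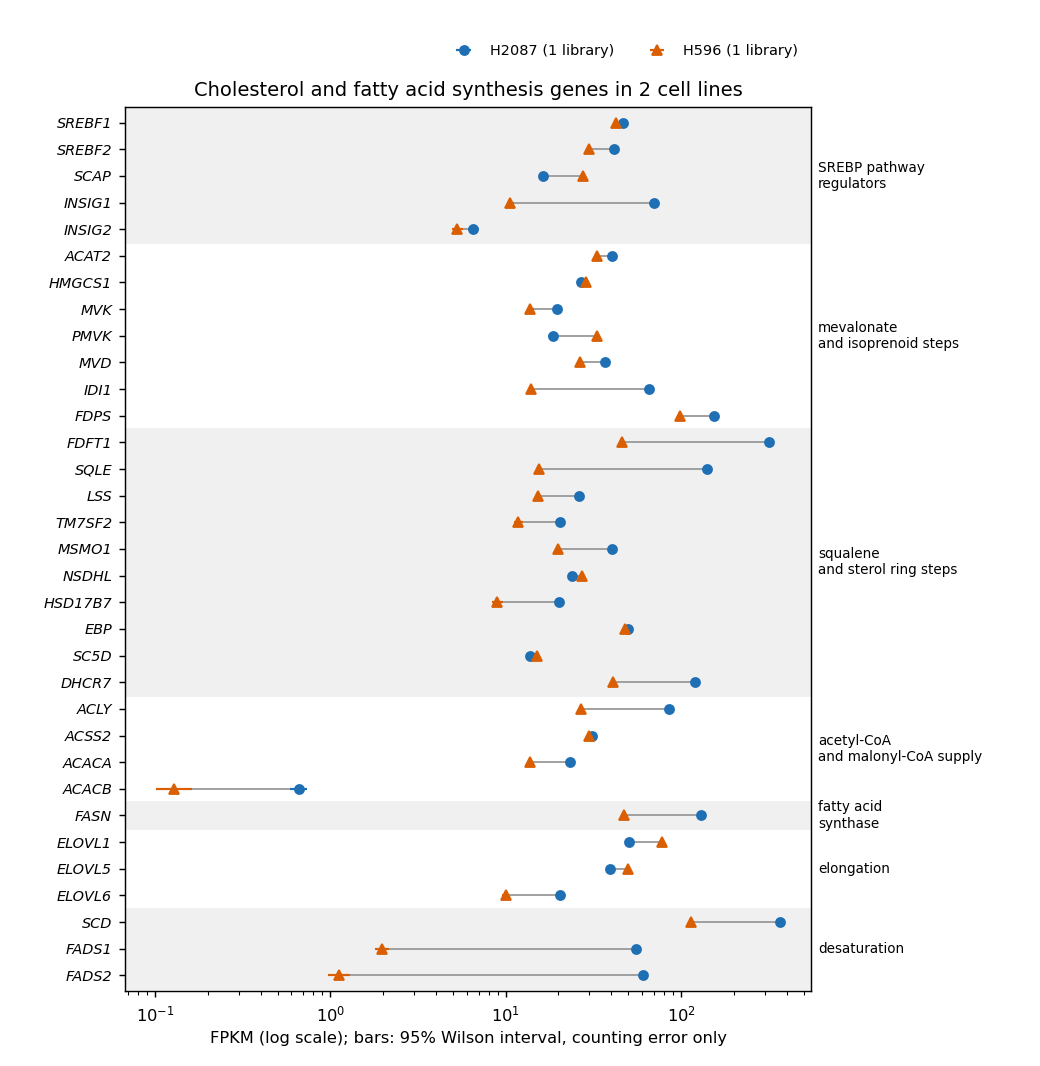
FPKM of the 33 synthesis genes on a log axis, in H2087 (blue circles) and H596 (orange triangles), ordered by step. Bars are 95% Wilson intervals of 1 library each. The longest lines between the cell lines belong to FADS2 (60.6 and 1.12 FPKM) and FADS1 (55.6 and 1.96 FPKM), and SCD is the highest gene in both libraries.

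The transcription factors themselves differed little between the cell lines. SREBF1, which encodes the factor of fatty acid synthesis, was at 46.4 FPKM in H2087 and 42.6 FPKM in H596, a difference of -0.12. SREBF2, which encodes the factor of cholesterol synthesis, was at 41.4 and 29.9 FPKM, a difference of -0.46. The ratio of SREBF1 to SREBF2 was 1.12 in H2087 and 1.43 in H596. These are messenger RNA levels, whereas the cut and active form of the proteins is set after translation and was not measured.

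INSIG1 (gene 3638), a retention factor and known SREBP target, was the only 1 of 5 regulators called, against 32.4% of all genes compared. It was at 70.3 FPKM (68.9 to 71.7) in H2087 and 10.6 FPKM (10.1 to 11.1) in H596, 6.63-fold higher in H2087 (6.31 to 6.97), and the intervals of the libraries did not overlap. With the highest single transcript of each library in place of the gene, the difference of -2.62 became -1.25, still past 2-fold. INSIG2, its relative, was at 6.54 and 5.31 FPKM, so the ratio of INSIG1 to INSIG2 was 10.7 in H2087 and 2.0 in H596. SCAP, the escort protein, went the other way, at 16.3 FPKM in H2087 and 27.7 FPKM in H596, a difference of 0.73 that stayed within 2-fold. The ratio of SCAP to INSIG1 was 0.232 in H2087 and 2.61 in H596. INSIG1 thus exceeded SCAP in H2087 and was below it in H596.

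The first enzymes of the mevalonate route lay close together in both cell lines. ACAT2, which joins 2 acetyl-CoA molecules, was at 40.6 FPKM in H2087 and 33.1 FPKM in H596. HMGCS1, which adds the next acetyl group, was at 26.9 and 28.6 FPKM. The kinase MVK was at 19.7 and 13.8 FPKM, and MVD, which removes a carboxyl group, at 37.0 and 26.6 FPKM. None of the 4 differed by 2-fold, the differences ranging from -0.48 for MVK to 0.09 for HMGCS1. PMVK, the second kinase of the route, had the largest positive difference on the whole list, 18.5 FPKM in H2087 and 33.1 FPKM in H596, a difference of 0.80, which reached 2-fold only when FPKM was rescaled to TPM (1.0).

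IDI1 (gene 3422), the isomerase that makes the reactive isoprene unit, was the only called gene of the group's 7, against 32.4% of all genes. It was at 65.3 FPKM (64.0 to 66.7) in H2087 and 14.0 FPKM (13.4 to 14.6) in H596, 4.67-fold higher in H2087 (4.46 to 4.89). FDPS, which builds farnesyl diphosphate from these units, was the highest gene of the group in both libraries, at 154 and 98.5 FPKM, a difference of -0.64. The median difference of the 7 genes was -0.46.

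The enzymes that commit farnesyl diphosphate to sterols differed most within the cholesterol route. FDFT1 (gene 2222), squalene synthase, was at 317 FPKM (314 to 321) in H2087 and 45.9 FPKM (44.7 to 47.1) in H596, 6.92-fold higher in H2087 (6.72 to 7.11). SQLE (gene 6713), the epoxidase that adds oxygen to squalene and a known control point, was at 141 FPKM (139 to 143) and 15.6 FPKM (15.0 to 16.2), 9.08-fold higher in H2087 (8.72 to 9.46). FDFT1 stood 4.85-fold above the upstream IDI1 in H2087 and 3.28-fold above it in H596, both genes being lower there. The contrast was larger against HMGCS1 and SC5D, which were among the 4 of 17 cholesterol enzymes with a difference above 0. FDFT1 stood 11.8-fold above HMGCS1 in H2087 and 1.60-fold above it in H596, and SQLE stood 10.3-fold above the later enzyme SC5D in H2087 and 1.03-fold above it in H596.

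Of the 8 genes that close and trim the sterol ring, 2 were called, against 32.4% of all genes compared. DHCR7 (gene 1717), the last reductase of one branch, was at 121 FPKM (119 to 123) in H2087 and 40.7 FPKM (39.7 to 41.7) in H596, 2.97-fold higher in H2087 (2.88 to 3.06). HSD17B7, a keto reductase of the demethylation step, was at 20.3 and 8.94 FPKM, 2.27-fold (2.07 to 2.48), the smallest call on the list, and its difference of -1.10 became -0.96 when values were rescaled to TPM. MSMO1, the C4 methyl oxidase, was just outside the 2-fold rule at 40.2 and 19.9 FPKM, a difference of -0.98. HSD17B7, like FDPS, has pseudogene copies elsewhere in the genome, and it is not stated how reads shared with them were divided.

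The other ring enzymes lay within 2-fold. LSS, which closes the ring, was at 26.2 FPKM in H2087 and 15.3 FPKM in H596, and TM7SF2, a sterol reductase, was at 20.5 and 11.8 FPKM, differences of -0.74 and -0.75. NSDHL, the decarboxylating dehydrogenase, was at 24.0 and 27.3 FPKM, and SC5D, a desaturase, at 13.7 and 15.1 FPKM. EBP, an isomerase, was at 49.8 and 47.7 FPKM, and the interval of its ratio, 0.991 to 1.10, H2087 over H596, included 1. Squalene and sterol ring genes thus ranged from a difference of -3.10 for SQLE to 0.18 for NSDHL. Of the 10 genes, 4 were called lower, against 14.2% of all genes compared. The summed FPKM of the 10 genes was 774 in H2087 and 248 in H596, a 3.12-fold difference, while that of the 7 mevalonate and isoprenoid genes was 362 and 248, a 1.46-fold difference.

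**Figure D2:**
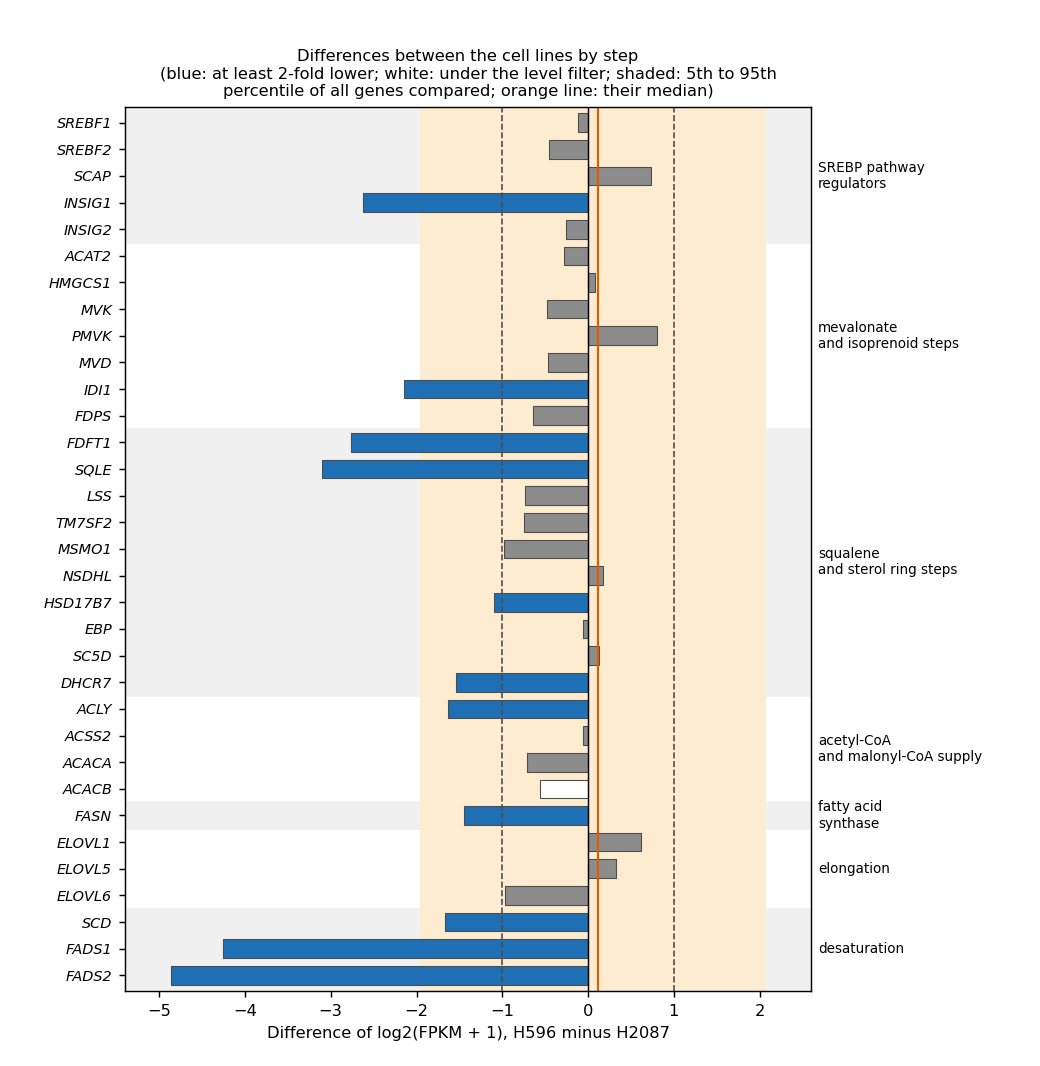
Difference on the log2(FPKM + 1) scale, H596 minus H2087, for each of the 33 synthesis genes by step. Dashed lines mark 2-fold, the shaded span the 5th to 95th percentile of all genes compared (-1.95 to 2.06), and the orange line their median of 0.12. The 11 blue bars are at least 2-fold lower in H596, and INSIG1, IDI1, FDFT1, SQLE, FADS1 and FADS2 pass the 5th percentile.

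In fatty acid synthesis, ACLY (gene 47), which cleaves citrate to acetyl-CoA in the cytosol, was at 85.6 FPKM (84.4 to 86.9) in H2087 and 27.0 FPKM (26.4 to 27.7) in H596, 3.17-fold higher in H2087 (3.08 to 3.26). ACSS2, which makes acetyl-CoA from acetate instead, was at 31.1 and 29.8 FPKM, a difference of -0.06. ACLY was therefore well above ACSS2 in H2087 and slightly below it in H596. ACACA, the cytosolic carboxylase that makes malonyl-CoA, was at 23.3 and 13.8 FPKM, a difference of -0.71. ACACB, its mitochondrial relative, was the gene below the filter, at 0.660 FPKM (293 counts) in H2087 and 0.128 FPKM (68 counts) in H596, a 5.14-fold ratio with an interval of 3.94 to 6.80. ACACA was the main carboxylase in both libraries, 35.3-fold above ACACB in H2087 and 107.6-fold above it in H596.

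FASN (gene 2194), the synthase that assembles palmitate, was at 130 FPKM (129 to 131) in H2087 and 47.1 FPKM (46.5 to 47.8) in H596, 2.76-fold higher in H2087 (2.72 to 2.81). The elongases that extend the product did not follow it as a group. ELOVL6, which elongates palmitate, was at 20.4 and 9.97 FPKM, a difference of -0.96 just outside the rule. ELOVL1, an elongase of very long saturated chains, was at 50.4 and 78.1 FPKM, a difference of 0.62, and ELOVL5, an elongase of polyunsaturated chains, was at 39.5 and 49.8 FPKM, a difference of 0.33. Elongation was the only step with a median difference above 0 (0.33) and with a higher summed FPKM in H596 (138, against 110 in H2087).

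All 3 fatty acid desaturases on the list were at least 2-fold lower in H596, against 14.2% of all genes compared. They included the largest differences on the list. SC5D, the sterol desaturase on the list, lay within 2-fold (a difference of 0.13). Outside the list, the desaturase SCD5 was higher in H596 (a difference of 2.01), and the related gene FADS3 lay within 2-fold (-0.35). SCD (gene 6319), which makes oleate, was the highest synthesis gene in both libraries, at 365 FPKM (362 to 367) in H2087 and 114 FPKM (113 to 115) in H596, 3.20-fold higher in H2087 (3.16 to 3.24). SCD and FASN kept a similar ratio, 2.80 in H2087 and 2.42 in H596.

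FADS1 and FADS2, the delta-5 and delta-6 desaturases that make long polyunsaturated fatty acids, were the furthest apart between the libraries. FADS1 (gene 3992) was at 55.6 FPKM (54.6 to 56.6), 11782 counts, in H2087 and 1.96 FPKM (1.8 to 2.15), 493 counts, in H596, 28.3-fold higher in H2087 (25.9 to 31.0). FADS2 (gene 9415) was at 60.6 FPKM (59.4 to 61.9), 9493 counts, and 1.12 FPKM (0.974 to 1.29), 197 counts, 54.1-fold higher in H2087 (47.0 to 62.7). Among all genes FADS2 ranked 1237 in H2087 and 12429 in H596, and FADS1 ranked 1361 and 11503. The differences on the log2(FPKM + 1) scale, -4.26 and -4.86, understate these ratios because the added 1 is near the level in H596. The genes are neighbours on chromosome 11, FADS1 at chr11:61567097-61584529 on the minus strand and FADS2 at chr11:61583675-61634826 on the plus strand (hg19), and their annotated ends overlap. Whether reads in the overlap were assigned by strand is not stated, so the division between the pair there is uncertain.

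Most genes around the pair differed by less than 2-fold. FADS3, a related gene next to FADS2 with no settled function, was at 7.38 FPKM in H2087 and 5.56 FPKM in H596. FEN1, a flap endonuclease, was at 26.1 and 35.1 FPKM, and TMEM258 at 111 and 93.3 FPKM. Of the 7 other genes compared within 200 kb, RAB3IL1 alone was called, against 32.4% of all genes compared. It was at 7.57 and 0.843 FPKM, a difference of -2.22, 8.98-fold higher in H2087, and it lies beyond FADS3 from the pair. RPLP0P2, a pseudogene below the level filter, was at 87 counts in H2087 and 3 in H596. The median difference of the 20 nearest genes compared was 0.30 for both FADS1 and FADS2.

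**Figure D3:**
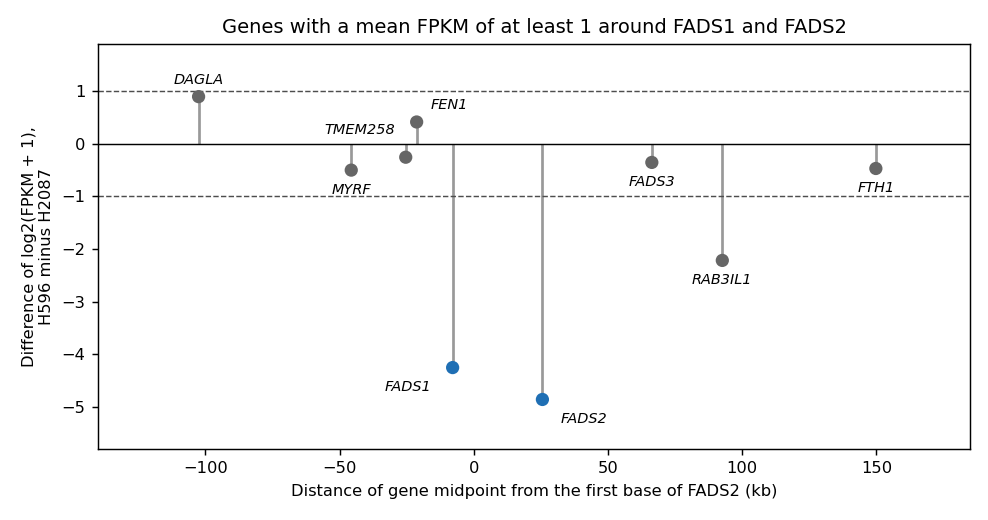
Difference on the log2(FPKM + 1) scale, H596 minus H2087, against the distance in kb of a gene's midpoint from the first base of FADS2, for the 9 genes compared within 200 kb. FADS1 (-4.26) and FADS2 (-4.86) are in blue. Of the others, RAB3IL1 (-2.22) lies past the dashed 2-fold lines and the remaining 6 lie between them.

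The same comparison was made for every gene on the list. The 33 genes lay on 17 chromosomes, and the 11 lower genes on 6 of them. Over the 32 genes compared, the median difference of the 20 nearest genes ranged from -0.78 to 0.78, and 25 of the 32 genes were below the median of their own neighbours. The 11 lower genes had been chosen for differences of -1 or below, and no neighbour median was that low, so that all 11 were below their neighbours was fixed by the choice and is given as a description. The gap was at least 1, that is 2-fold, for 9 of them. The neighbours were lowest, at -0.78, around SCD, and at -0.70 around both IDI1 and SQLE. SCD lay 0.89 below its neighbours, IDI1 1.45 and SQLE 2.41. Around FDFT1, FASN, ACLY and DHCR7 the neighbours had medians of -0.06, 0.03, 0.16 and 0.22. DNA copy number was not measured in these data.

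**Figure D4:**
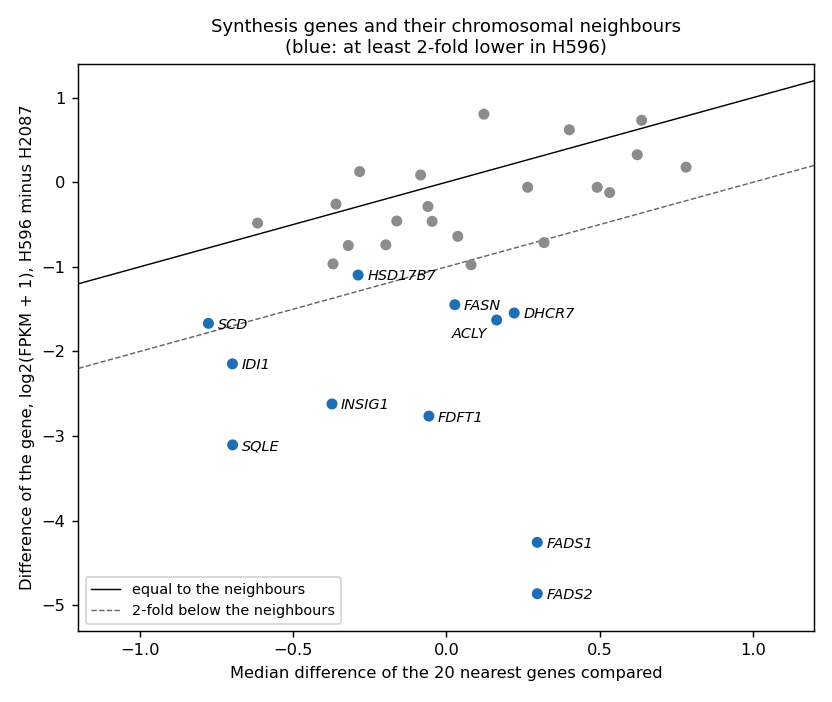
Difference of each of the 32 synthesis genes compared (vertical) against the median difference of its 20 nearest genes compared on the same chromosome (horizontal), both on the log2(FPKM + 1) scale, H596 minus H2087. The 11 genes at least 2-fold lower in H596 (blue) lie below the solid line of equality, as their choice fixed, and 9 lie below the dashed line, the exceptions being SCD and HSD17B7.

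The transcript table listed 112 transcripts of the 33 genes. It gave 1 transcript for 7 genes and several for 26, and of these 26 genes 24 had the same leading transcript in both libraries. The division of reads among transcripts that share most of their sequence is an estimate, so these values are less certain than gene levels, and their intervals are unknown.

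FADS2 and ELOVL5 were the exceptions. For FADS2, transcript NM_004265, which begins at 61595505, held 69.5% of the FPKM of the gene in H2087 (42.1 FPKM, 6782 counts) and was listed at a count of 0 in H596. NM_001281502, which begins upstream at 61583876, within FADS1, was at 10.3 FPKM (1517 counts) in H2087 and 1.12 FPKM (197 counts) in H596 and was the whole of the FADS2 value in H596. The FADS2 reads left in H596 were thus assigned to a transcript that begins at the overlap with FADS1.

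ELOVL5 (gene 60481) had nearly equal gene levels and opposite transcripts. In H2087, NM_021814 held 92.2% of the gene (36.4 FPKM, 5241 counts) and NM_001301856 held 0.811% (0.320 FPKM, 50 counts). In H596, NM_021814 held 3.68% (1.83 FPKM, 312 counts) and NM_001301856 held 84.2% (41.9 FPKM, 7686 counts). The gene is on the minus strand of chromosome 6, and the annotated first base is 53213977 for NM_021814 and 53213743 for NM_001301856. The difference of 0.33 between gene levels therefore went with an exchange of the leading transcript.

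Less change was seen for the other genes. For INSIG1, NM_005542 led in both libraries, with 25.4% of the gene in H2087 and 65.4% in H596, and NM_001346594 was at 2227 counts in H2087 and 0 in H596. For SREBF1, NM_001321096, which begins downstream of the other 2 transcripts, held 64.5% of the gene in H2087 and 79.1% in H596 (29.9 and 33.7 FPKM), while NM_001005291 was at 8.55 FPKM in H2087 and 3.13 FPKM in H596.

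**Figure D5:**
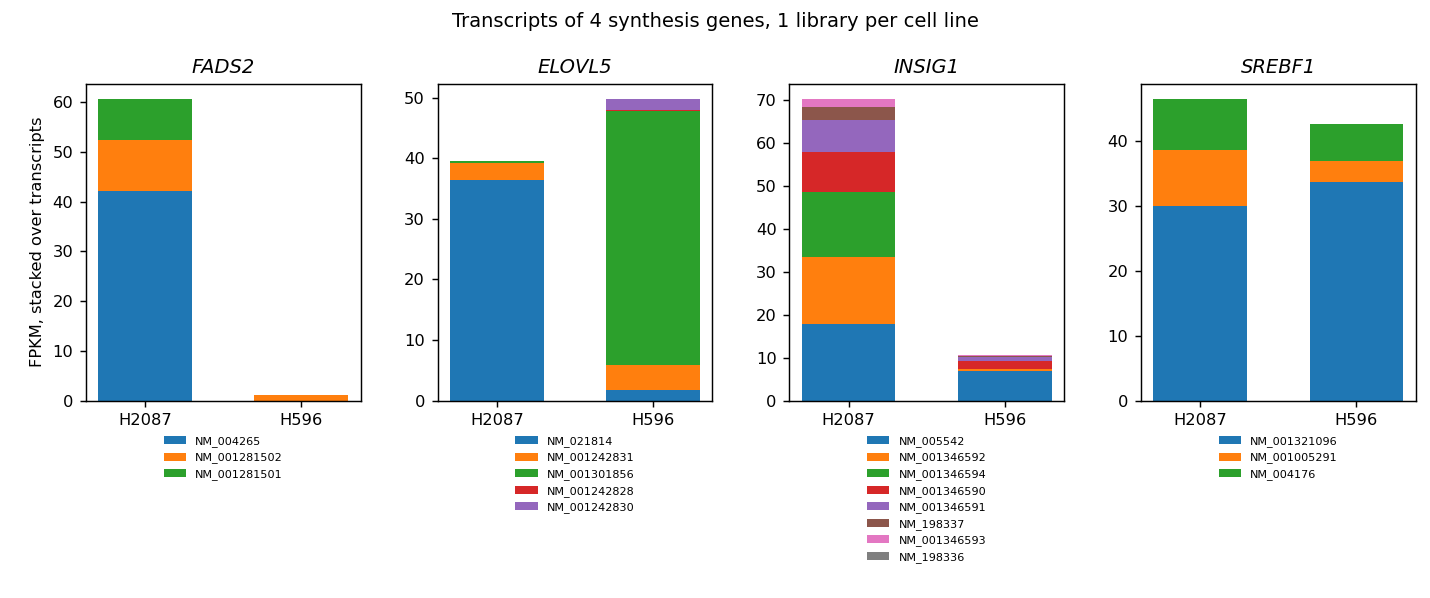
FPKM of each listed transcript, stacked, of FADS2, ELOVL5, INSIG1 and SREBF1 in H2087 and H596 (linear axes from 0, 1 library each, no error bars). In FADS2 NM_004265 is 42.1 FPKM in H2087 and listed at 0 in H596. In ELOVL5 the leading color changes from NM_021814 to NM_001301856, while the height of the bars changes from 39.5 to 49.8 FPKM.

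The order of levels changed with these differences. In H2087 it ran from SCD, FDFT1, FDPS, SQLE and FASN down to INSIG2 and ACACB, and the intervals of the first 11 genes in the order did not overlap with those of the next gene. In H596 it ran from SCD, FDPS, ELOVL1, ELOVL5 and EBP down to FADS1, FADS2 and ACACB. Intervals of neighbours in the order overlapped in 10 of 32 pairs in H2087 and in 16 of 32 pairs in H596, where the run from SREBF2 through ACSS2, HMGCS1, SCAP, NSDHL and ACLY to MVD overlapped at each step.

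Genes that process SREBPs, supply carbon, and move or use the lipids were read as a second list of 60 names. The names stood for 57 genes, all in the table, as HACD1, HACD2 and HACD3 were also entered under older symbols. Of the 53 compared, 12 (22.6%) were at least 2-fold lower in H596 and 5 (9.43%) at least 2-fold higher, against the 14.2% and 18.2% of all genes given above, and their median difference was -0.30. The 7 genes of SREBP processing and sterol-regulated degradation held 1 call, RNF145, a ubiquitin ligase (58.4 FPKM in H2087 and 24.0 FPKM in H596), and their median difference was 0.48. On the log2(FPKM + 1) scale the largest difference, -3.53, was that of PDSS1, which makes the side chain of coenzyme Q from isoprene units, at 34.6 and 2.08 FPKM, 16.6-fold higher in H2087 (14.5 to 19.2). LPIN1, a phosphatidate phosphatase of triglyceride synthesis, was at 46.4 and 4.15 FPKM, 11.2-fold higher in H2087 (10.6 to 11.9). NPC2, which carries cholesterol out of lysosomes, was the most abundant gene of both lists, at 564 and 162 FPKM.

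The other lower genes comprised HACD1, a dehydratase of the elongation cycle (7.65 FPKM in H2087 and 1.42 FPKM in H596), ELOVL7, an elongase (10.7 and 4.70 FPKM), ME1, which yields NADPH (35.6 and 14.2 FPKM), and ACAT1, the mitochondrial counterpart of ACAT2 (66.7 and 29.4 FPKM). ACSL5, which activates fatty acids, was at 20.7 and 6.78 FPKM, and DGAT2, which completes triglycerides, at 5.06 and 1.49 FPKM. The lipid regulators MLX (28.8 and 13.9 FPKM) and NR1H3, a sterol-sensing nuclear receptor (5.59 and 2.25 FPKM), lay just past the 2-fold rule, with differences of -1.0 and -1.02.

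The 5 higher genes included relatives of lower ones. SCD5, a second stearoyl-CoA desaturase, was at 0.962 FPKM in H2087 and 6.89 FPKM in H596, 7.16-fold higher in H596 (6.01 to 8.59), while SCD was 3.20-fold lower there and still the more abundant of the pair. ACSS1, the mitochondrial relative of ACSS2, was at 0.221 and 3.77 FPKM, 17.1-fold higher in H596 (12.4 to 24.2). HACD2, a dehydratase like HACD1, was at 19.3 and 52.7 FPKM, 2.73-fold higher in H596 (2.63 to 2.83). FNTB, a subunit of the enzyme that attaches farnesyl groups to proteins, was at 5.66 and 15.6 FPKM. ABCG1, a sterol exporter, was at 0.0715 FPKM (11 counts) and 2.41 FPKM (406 counts), so its ratio of 33.6 had a wide interval of 18.6 to 67.9.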

How the data were processed

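RNA-seq data of 1 H2087 and 1 H596 library were used. Total RNA was isolated with TRIzol and stranded mRNA libraries were sequenced on an Illumina HiSeq4000. The authors aligned reads to hg19 and estimated abundance against RefSeq transcripts. The submitters' processing notes name bcl2fastq 1.8.4, Trimmomatic, HISAT2 2.0.5 and StringTie 1.3.3b. An estimated count per gene and transcript was deposited as a whole number. Its origin is not given in the sources used here, and it was treated as rounded. The authors also deposited FPKM, scaled to length and library size. Total estimated counts were 46961500 in H2087 and 55387847 in H596, which set the counting precision.

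Levels in H596 were set against those in H2087 on the log2(FPKM + 1) scale, over 13047 gene symbols with a mean FPKM of at least 1 (of 27685 genes), with a call at 2-fold. No test was run on these 2 libraries. Intervals of levels are 95% Wilson intervals of the share of the total count, and those of ratios are exact conditional binomial intervals of the counts (scipy 1.17.1). If both mates of a pair were counted, the intervals are too narrow. TMM scaling used edgeR 4.0.16 in R 4.3.3. Alternatives were TMM, TPM, centring on the median difference, a pseudocount of 0.1, the highest single transcript, a mean FPKM of at least 10 and no filter. Calls and intervals were tested on simulated counts with counting error only, in which genes were unchanged or changed well past 2-fold. Variation between cultures or library preparations was not simulated.

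Of the 33 genes, 13 overlap another listed gene, and how such reads were divided is not stated. All 33 genes were named, with the related lipid genes past 2-fold and the defining markers. RAB3IL1 and the transcripts described were chosen after their values were seen. Members and lists were chosen with earlier results of these data known. Promoter windows are from RefSeq (GRCh38.p14), and were placed on hg19 by exact match. Python 3.11.15, numpy 2.4.6, pandas 2.3.3 and matplotlib 3.10.9 were used.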

Additional observations from a re-analysis of the deposited data

How the results depend on the processing

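The count of synthesis genes at least 2-fold lower in H596 (11) was 10 in TPM, 11 with a mean FPKM of at least 10 or with no filter, and 13 with TMM scaling, centring, a pseudocount of 0.1 or the highest single transcript. The share of all genes that were lower (14.2%) moved too. It was 12.9% in TPM, 14.0% with a mean FPKM of at least 10 and 7.45% with no filter. With TMM scaling or a pseudocount of 0.1 it was 16.3%, with centring 16.2% and with the highest single transcript 14.2%. PMVK was the 1 gene at least 2-fold higher in H596, only in TPM (1.0). The median difference (-0.68) was -0.81 with TMM scaling, -0.51 in TPM, -0.79 with centring and -0.83 with the highest single transcript. The 33 genes gave 165 differences under TMM scaling, TPM, centring, a pseudocount of 0.1 and the highest single transcript. Of these, 108 moved by more than the counting error of the gene. Of the 11 lower genes 0 changed sign, and 10 remained at -1 or below in all 5, the exception being HSD17B7 (-0.96 in TPM). Among genes within the rule, HMGCS1 changed sign with TMM scaling (-0.04) and centring (-0.03). SREBF1 (0.06), EBP (0.12) and ACSS2 (0.12) changed sign in TPM. With the highest single transcript INSIG1 moved from -2.62 to -1.25, TM7SF2 passed the rule at -1.07, and SREBF1 and INSIG2 changed sign within it (both 0.16). The share held by the synthesis genes was 0.802% in H2087 and 0.337% in H596 as estimated counts. It was 0.587% and 0.284% of FPKM without 88 genes, taken by the symbols of ribosomal proteins and mitochondrial ribosomal RNA. Of the related lipid genes, 10 of 38 were called at a mean FPKM of at least 10, where fewer genes were compared, against 29.6% of all genes. In choices made after seeing the data, leaving out FADS1 and FADS2 left 9 of 30 genes lower and a median of -0.56, and the FPKM ratio with no pseudocount gave 13 lower genes.

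No paired analysis was possible because a cell line was represented by 1 library. No library was left out for the same reason, and cell line, culture and library preparation cannot be told apart. Levels of proteins and lipids were not measured.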
